A study of Drosophila melanogaster with 2 samples.

Results

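Peaks of a Rough ChIP-seq experiment were examined at 10 genes that start, carry or restrain signalling by the epidermal growth factor receptor (EGFR) and by fibroblast growth factors (FGF) in *Drosophila melanogaster*. The genes are the EGFR ligands *spi* and *vn*, the ligand-processing gene *S*, the receptor *Egfr*, the FGF ligands *ths* and *pyr*, the inhibitors *aos* and *sty*, and the nuclear factors *pnt* and *aop*. They were chosen by name from 13968 protein-coding genes on the named chromosome arms. A peak was assigned to a gene when its summit lay in the gene body or within 10 kb of it, or when the gene had the nearest protein-coding start.

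The 2 libraries, biological replicates of 1 group, were made from whole embryos aged 0 to 24 h of the strain ro-GFP, whose flies carry a transgene for Rough fused to eGFP, and the fusion was pulled down with an antibody against GFP. The promoter that drives the fusion is not given in the sources used here, and no control sample was analysed here. Whole embryos of all these ages mix many cell types and stages, so a peak cannot be placed in a cell type. The 8 deposited lists comprise ranked lists of candidate peaks and shorter thresholded lists, 1 of each kind for each replicate and 2 of each kind for both replicates together. Every thresholded peak had an irreproducible discovery rate (IDR) of at most 0.01 in its ranked list, but not every candidate at or below that rate was kept: 2113 candidates reached it in the list behind the optimal set. The authors' signal value per peak is the measure used throughout and ranks peaks within a list. The larger thresholded list over both replicates, the optimal set, held 1969 peaks, of which 1883 lay on the named arms, and the smaller, conservative set held 1627. Replicate 1 had 1484 thresholded peaks and replicate 2 had 1113. Read totals are not part of the lists, which leaves the depth behind each value unknown.

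As background, Rough is a homeodomain transcription factor best known from the developing compound eye, where photoreceptors are recruited through EGFR signalling. EGFR and FGF receptors are receptor tyrosine kinases: a bound ligand starts a relay through Ras and MAP kinase that ends on ETS transcription factors in the nucleus, and several of the genes it turns on encode inhibitors of the same relay. In the embryo, EGFR signalling patterns the ventral ectoderm and the FGF ligands direct the spreading of the mesoderm.

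Of the 10 genes, 8 had at least 1 optimal-set peak, and *vn* and *pyr* had none. The same rule called 36.0% of all protein-coding genes. These 8 genes had 17 peaks in all. *sty* had 6 and *aop* had 4, *S* had 2, and *spi*, *Egfr*, *ths*, *aos* and *pnt* had 1 each. The rule can assign 1 peak to several genes: each of the 17 was assigned to between 2 genes and, for the *spi* peak, 7. *pnt* was counted only through a peak at the *Cdc16* promoter, 9121 bp outside *pnt*. Long genes catch more peaks under such a rule, and the 10 genes were long, with a median length of 25962.5 bp against 2164.5 bp for all genes. Among the 2059 genes at least as long as the shortest of the 10, a background chosen after the data had been seen, 46.9% had a peak. A peak found in the own thresholded lists of both replicates lay at 7 of the 10 genes, against 19.5% of all genes and 25.3% of the long ones. By nearest protein-coding start alone, 7 of the 10 genes had a peak against 10.5% of all genes and 25.3% of the long ones, and 5 had one found in both replicates against 4.8% and 11.7%. With the summit inside the gene body, 6 had a peak against 6.01% of all genes and 24.4% of the long ones. The counts in the other lists were 7 of 10 in the conservative set (32.0% of all genes and 42.0% of the long ones), 8 of 10 in the list of replicate 1 (28.7% and 38.8%) and 7 of 10 in that of replicate 2 (25.8% and 32.8%). The long genes start at 9416 bp, so they matched the length of the 10 genes only in part. In each of these 8 counts the 10 genes stood above the background, but the counts share many of the same peaks and are not independent. No test was run because the genes were chosen with earlier results of these data known.

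**Figure D1:**
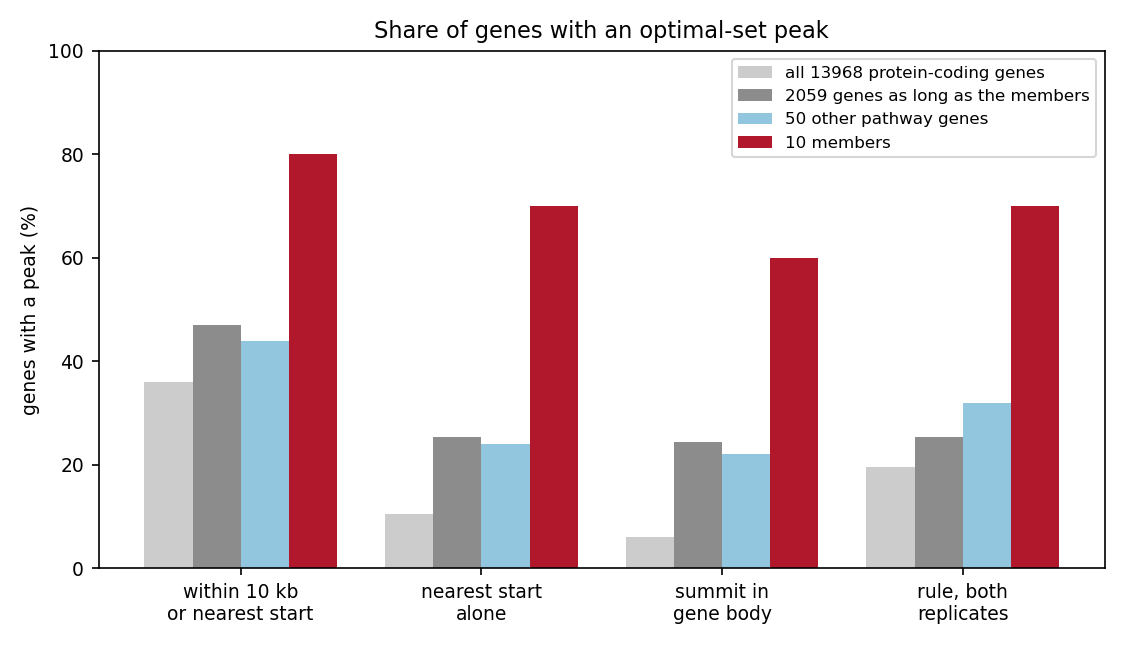
Percentage of genes with an optimal-set peak (vertical axis) under 4 ways of counting: the full rule, the nearest start alone, the summit in the gene body, and the full rule with the peak in both replicate lists. Bars stand for all genes, the 2059 long genes, 50 other pathway genes and the 10 genes described here, which reach 8, 7, 6 and 7 of 10 from left to right.

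The ligand genes of EGFR differed from each other. *spi* encodes Spitz, the main activating ligand of EGFR in the embryo, which is made as a membrane-bound precursor, and it lies at 2L 19567900 to 19577315 on the minus strand (FBgn0005672). Its single peak, at chr2L:19575640-19576019, had a signal value of 152.95 and ranked 483 of 1969. The summit lay inside the gene, 1485 bp from its 5′ end and 243 bp upstream of an internal *spi* start, so it was classed as a promoter peak. The signal value was 99.7 in replicate 1 (rank 416 among its ranked candidates) and 55.3 in replicate 2 (rank 843), a log2 ratio of 0.85, and the peak stood in all 4 thresholded lists. No other candidate at *spi* came near it: the next had a signal value of 55.7.

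*vn* encodes Vein, a secreted neuregulin-like ligand of EGFR, and lies at 3L 5813338 to 5845664 (FBgn0003984). None of the 4 thresholded lists held a peak there, although 72 candidates of the ranked list behind the optimal set did lie at the gene. The strongest of them had a signal value of 58.6, at rank 3153, 5682 bp upstream of *vn*. The highest candidate values in the single replicates were 39.7 (rank 2094) in replicate 1 and 38.4 (rank 1855) in replicate 2, at different places. The best candidate over both replicates was higher than that of 51.3% of all genes, the middle of the distribution. This share is not adjusted for length, and *vn* has 32327 bp against a median of 2164.5 bp. The nearest optimal-set peak lay 116112 bp away.

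*S* encodes Star, a transmembrane protein that carries the Spitz precursor out of the endoplasmic reticulum so that it can be cleaved, and it lies at 2L 1049674 to 1077815 on the minus strand (FBgn0003310). Both of its optimal-set peaks lay in introns close to the 5′ end. The stronger, at chr2L:1075877-1076042 and 1845 bp downstream of the start, had a signal value of 219.65 (rank 242), with 124.6 in replicate 1 (rank 279) and 100.2 in replicate 2 (rank 259). The other, at chr2L:1072191-1072570 and 5430 bp downstream, had 112.53 (rank 829), with 54.1 and 55.6. Both stood in all 4 thresholded lists, and their log2 ratios of replicate 1 over replicate 2, 0.31 and -0.04, were small. Between them the conservative set had 2 further peaks that the optimal set lacked, and these overlapped each other. They lay at chr2L:1074472-1074851 (signal value 79.8) and chr2L:1074674-1075053 (5.36), so that set had 4 peaks at *S*. Both matched the same candidate in each replicate. The sequences around the *spi* summit and the stronger *S* summit are shown because these were the strongest peaks of the EGFR ligand branch. Each line gives the summit base and the 50 bases on either side in dm6, 5′ to 3′ on the plus strand, with capitals marking AGGAAG, an ETS-type word.
spi chr2L:19575780-19575880: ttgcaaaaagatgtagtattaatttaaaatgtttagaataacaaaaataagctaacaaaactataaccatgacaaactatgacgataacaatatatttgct
S chr2L:1075916-1076016: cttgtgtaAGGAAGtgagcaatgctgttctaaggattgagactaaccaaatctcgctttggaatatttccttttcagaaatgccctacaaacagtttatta

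The receptor gene had a weak peak. *Egfr*, the only EGFR gene of the fly, lies at 2R 21522420 to 21559977 on the plus strand (FBgn0003731). Its optimal-set peak, at chr2R:21547423-21547802, had a signal value of 79.55, ranked 1426 and lay in coding sequence, 970 bp downstream of an internal start. The values of 33.7 in replicate 1 (rank 3069) and 32.4 in replicate 2 (rank 3210) were nearly equal, yet the peak stood in no other thresholded list. It was the only 1 of the 17 peaks in neither replicate's own list, against 388 of all 1883. The list of replicate 1 had a separate intronic peak at chr2R:21542470-21542825 with 49.8, where replicate 2 had a candidate of 17.1.

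The FGF ligand genes stand close together on the same arm and had opposite outcomes. *ths* and *pyr* encode Thisbe and Pyramus, FGF8-like ligands of the receptor Heartless. At *ths*, 2R 11756817 to 11814424 on the plus strand (FBgn0033652), an intronic peak at chr2R:11791779-11791875 had a signal value of 199.25 (rank 304). Its values of 102.0 in replicate 1 (rank 397) and 94.4 in replicate 2 (rank 299) gave a log2 ratio of 0.11, and all 4 thresholded lists held it. The summit lay 35016 bp from the 5′ end of the gene and 1467 bp downstream of the nearest *ths* start, and the peak was only 97 bp wide. A further intronic peak, at chr2R:11809330-11809709 with 92.5, stood in the conservative set alone.

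At *pyr*, 2R 11712263 to 11726345 (FBgn0033649), no thresholded list held a peak, and the strongest of 24 candidates had a signal value of 40.7 (rank 12952). The best candidates were 27.7 in replicate 1 and 25.9 in replicate 2. Only 11.2% of genes had a lower best candidate, against 90.6% for *ths*. These shares are not adjusted for length, and *pyr* has 14083 bp against 57608 bp for *ths*. The nearest optimal-set peak to *pyr* was the one in *ths*, 65488 bp away.

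**Figure D2:**
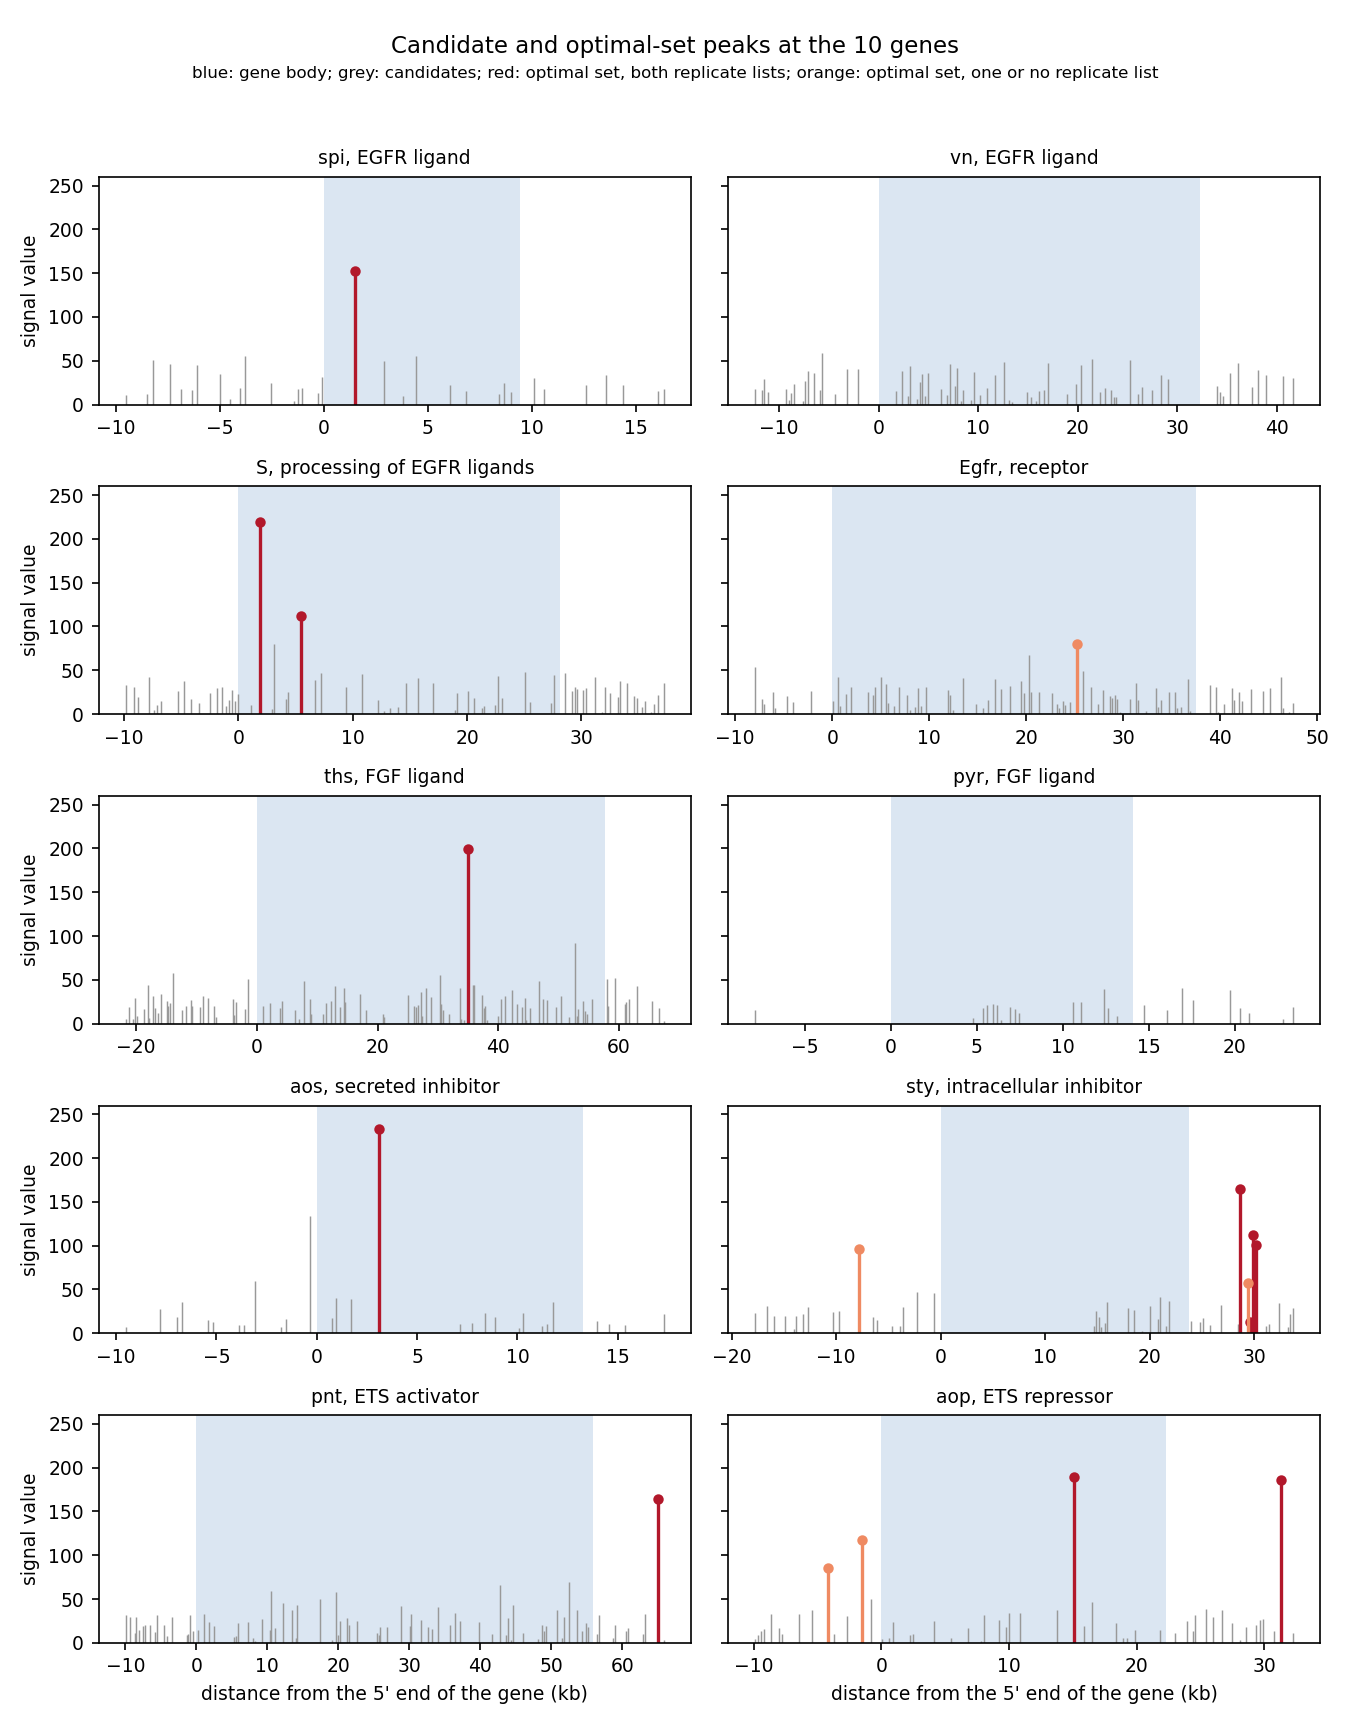
Signal values (vertical axis) of candidates and optimal-set peaks by distance in kb from the 5′ end of each gene, with the gene body shaded. The highest peaks, at *aos* (233.14) and *S* (219.65), lay near the 5′ ends, those of *sty* lay outside the gene on both sides, and *vn* and *pyr* show candidates alone, none above 58.6.

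The strongest of the 17 peaks lay at an inhibitor gene, *aos*, and *sty* had the most peaks within the 10 kb window. *aos* encodes Argos, a secreted protein that binds Spitz and keeps it from the receptor, and it lies at 3L 16470386 to 16483650 on the minus strand (FBgn0004569). Its peak at chr3L:16480518-16480644 had a signal value of 233.14, the highest of the 17, and ranked 218 of 1969. It lay in an intron 3113 bp downstream of the start, in a stretch that *CG33158* also covers, and all 4 thresholded lists held it. Replicate 1 gave 160.2 (rank 172) and replicate 2 gave 76.1 (rank 466), a log2 ratio of 1.07.

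The replicates differed more at 2 other places upstream of *aos*. The list of replicate 1 had a promoter peak at chr3L:16483695-16484050, 223 bp upstream of the start. Its signal value was 114.0 (rank 321 among the ranked candidates of replicate 1), whereas the candidate of replicate 2 there had 23.1 (rank 14227). In the ranking over both replicates this place had a signal value of 133.5, above that of most optimal-set peaks, but did not pass the IDR threshold. The list of replicate 1 also had a peak at chr3L:16486546-16486901 with 64.2, where replicate 2 had no candidate. So *aos* had 3 peaks in replicate 1 and 1 in replicate 2.

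*sty* encodes Sprouty, an intracellular inhibitor of signalling by several receptor tyrosine kinases, and lies at 3L 3401153 to 3424935 on the minus strand (FBgn0014388). None of its 6 peaks lay inside the gene. A cluster of 5 stood within 1880 bp, at chr3L:3394579-3396458, between 4884 and 6384 bp beyond the 3′ end of *sty*. The nearest protein-coding gene body to all 5 was *sty*, while the nearest protein-coding start was that of *Ids*, 16501 to 18001 bp away. Assignment by start alone thus gave these 5 to *Ids* and left *sty* with 1 peak, against 3 for *aop*. The strongest of the cluster, at chr3L:3396079-3396458, had a signal value of 165.24 (rank 420), with 112.2 in replicate 1 (rank 331) and 51.0 in replicate 2 (rank 1000). The next had 112.34, with 81.0 and 59.5, and 100.34, with 53.8 and 54.5, and all 3 stood in every thresholded list. The other 2 of the cluster were weak: 57.88, found in the conservative set and in replicate 1, and 13.12, which overlapped the peak of 112.34. The sixth peak, at chr3L:3432602-3432981, lay 7857 bp upstream of *sty* in an intron of *eIF5B*, with *sty* as its nearest start. It had a signal value of 96.38, with 47.7 in replicate 1 and 49.2 in replicate 2, and of the other thresholded lists those of the conservative set and of replicate 2 held it, whereas that of replicate 1 did not.

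The summit sequences of the *aos* peak and of 3 *sty* peaks are given to show the strongest inhibitor peaks and the *sty* windows that hold TAATTA, the core word bound by many homeodomains, which reads the same on both strands. Each is the summit with 50 bases on either side in dm6, 5′ to 3′ on the plus strand, with TAATTA in capitals.
aos chr3L:16480487-16480587: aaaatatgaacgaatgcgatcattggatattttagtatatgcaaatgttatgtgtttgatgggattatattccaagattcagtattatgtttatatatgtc
sty chr3L:3396219-3396319: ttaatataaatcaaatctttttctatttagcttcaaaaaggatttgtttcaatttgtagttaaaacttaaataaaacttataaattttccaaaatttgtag
sty chr3L:3395496-3395596: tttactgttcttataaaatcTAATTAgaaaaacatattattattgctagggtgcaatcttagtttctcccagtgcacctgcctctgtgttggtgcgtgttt
sty chr3L:3432742-3432842: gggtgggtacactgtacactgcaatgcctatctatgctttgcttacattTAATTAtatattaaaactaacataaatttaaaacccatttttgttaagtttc

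The nuclear genes are the ETS factors at the end of the relay. *pnt* encodes Pointed, an activator that MAP kinase switches on, and lies at 3R 23290231 to 23346167 on the minus strand (FBgn0003118). The 87 candidates at this gene of 55937 bp included 1 optimal-set peak, at chr3R:23280920-23281299, with a signal value of 164.45 (rank 424). Replicate 1 gave 72.6 (rank 726) and replicate 2 gave 99.4 (rank 267), a log2 ratio of -0.45, the lowest of the 17. The summit lay 91 bp upstream of the start of *Cdc16*, a gene of the anaphase-promoting complex, and 9121 bp beyond the 3′ end of *pnt*, near the edge of the 10 kb window. Inside *pnt* the strongest candidate had 69.6, at rank 2012 of 144610, and no thresholded list held it.

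*aop* encodes Anterior open, also called Yan, a repressor that competes with Pointed and leaves the nucleus when MAP kinase is active. It lies at 2L 2156484 to 2178754 on the minus strand (FBgn0000097). An intronic peak at chr2L:2163581-2163715 had a signal value of 189.67 (rank 327), with 113.7 in replicate 1 (rank 323) and 71.5 in replicate 2 (rank 528), and stood in all 4 thresholded lists. Its summit was 2144 bp upstream of an internal *aop* start. A peak of similar height, 185.65 (rank 333), with 86.2 and 102.3 in the replicates, lay 9041 bp beyond the 3′ end of *aop* and 75 bp upstream of the start of *Tbcd*, which encodes a tubulin-folding cofactor. A pair of peaks upstream of *aop* had higher values in replicate 1. At 1520 bp upstream the signal value was 117.48, with 74.7 in replicate 1 (rank 697) and 32.0 in replicate 2 (rank 3364), and the conservative set held this peak. At 4204 bp upstream, in a non-coding exon, the signal value was 85.26, with 53.2 (rank 1272) and 24.4 (rank 11269), and the conservative set lacked this peak. Their log2 ratios, 1.22 and 1.13, were among the 4 highest of the 17, and neither peak stood in the list of replicate 2. That list had instead a peak 829 bp upstream, at chr2L:2179445-2179720, with 41.7 against 27.0 in replicate 1. Summit sequences of the intronic *aop* peak, of the *aop* peak 1520 bp upstream and of the *pnt* peak follow, again with 50 bases of dm6 on either side of the summit on the plus strand, 5′ to 3′. Capitals mark TAATTA at *aop* and, at *pnt*, CCATTA, which is the homeodomain word TAATGG on the other strand.
aop chr2L:2163621-2163721: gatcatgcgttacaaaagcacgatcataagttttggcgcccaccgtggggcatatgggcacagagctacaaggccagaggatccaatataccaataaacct
aop chr2L:2180224-2180324: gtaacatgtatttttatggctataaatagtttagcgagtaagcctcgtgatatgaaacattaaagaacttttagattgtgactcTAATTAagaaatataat
pnt chr3R:23281060-23281160: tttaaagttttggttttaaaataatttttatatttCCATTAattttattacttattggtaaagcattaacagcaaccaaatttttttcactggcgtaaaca

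The 2 assignments at the edge of the window were the peaks at *Tbcd* and *Cdc16* promoters, 9041 and 9121 bp from *aop* and *pnt*. Just outside the window, *aop* had a peak at 10432 bp (signal value 99.8, at the promoter of *CG10874*) and *pnt* had one at 10860 bp (70.5, at the promoter of *Sec13*). Both genes thus had peaks of neighbouring promoters on either side of the limit. The next nearest peaks outside the rule lay 16394 bp from *Egfr* and 18585 bp from *sty*.

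Most of the 17 peaks were found in the replicates' own lists. In the list of replicate 1 stood 15 (88.2%, against 67.0% of all 1883 peaks), in that of replicate 2 13 (76.5%, against 52.0%) and in both 12 (70.6%, against 39.6%). Of these 12, 4 lay at *sty*, and 1 of them, the peak of 13.12, carried the replicate values of the peak of 112.34 that it overlapped. Without peaks that overlap a stronger one, 11 were found in both. The conservative set held 15 (88.2%, against 75.5%). Their median signal value was 117.5 against 101.7 for all peaks, and 8 of the 17 ranked among the 500 strongest (47.1%, against 25.6%). All 8 of those stood in both replicate lists, as did 94.2% of all peaks of that rank, and the part of strength in the replicate counts was not tested. A q value of at most 0.05 was given to 11 (64.7%, against 46.6%). This limit is only a mark, since 93.3% of the peaks in the list of replicate 1 and 39.3% of those in the list of replicate 2 met it. Some candidates had deposited values above 1, such as 1.07 for the strongest at *pyr*.

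**Figure D3:**
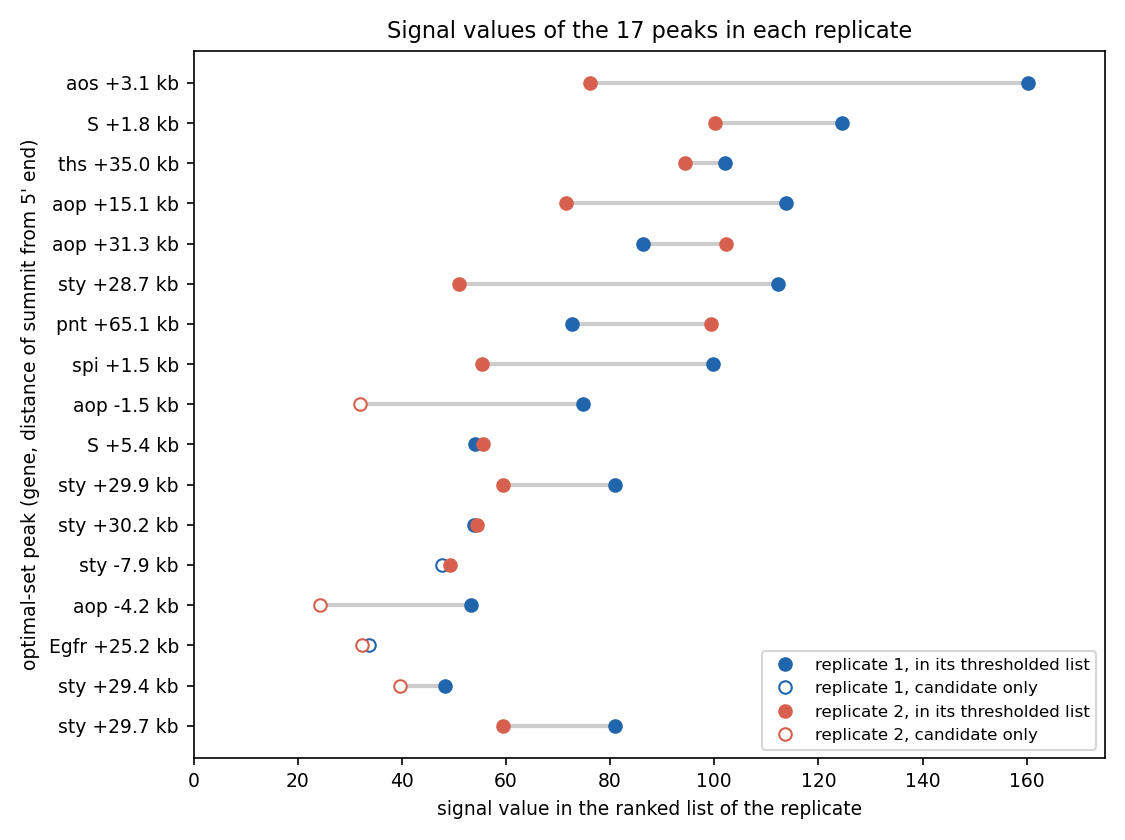
Signal value of each of the 17 optimal-set peaks (horizontal axis) in replicate 1 and replicate 2, ordered from the highest signal value in the optimal set at the top, with filled points for peaks in the replicate's own thresholded list and open points for candidates alone. The *aos* peak (160.2 and 76.1) shows the widest gap, and the *ths* peak (102.0 and 94.4) has a close pair. The bottom peak overlaps that of *sty* at +29.9 kb and carries its values.

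The balance between the replicates was that of the whole set. The median log2 ratio of replicate 1 over replicate 2 was 0.31 for the 17 peaks and 0.30 for all peaks with a candidate in both. Over the 17 it ran from -0.45 to 1.22, and over all peaks from -2.61 to 2.92 with quartiles of -0.12 and 0.80. The value was higher in replicate 1 at 12 of the 17 and at 1233 of 1827 of all peaks. The 12 count the *sty* values of 81.0 and 59.5 again for the peak of 13.12, which overlaps a stronger one. Of all 1883 peaks, 104 overlap a stronger one. Summits in the 2 replicates lay a median of 29 bp apart, against 31 bp over the set.

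**Figure D4:**
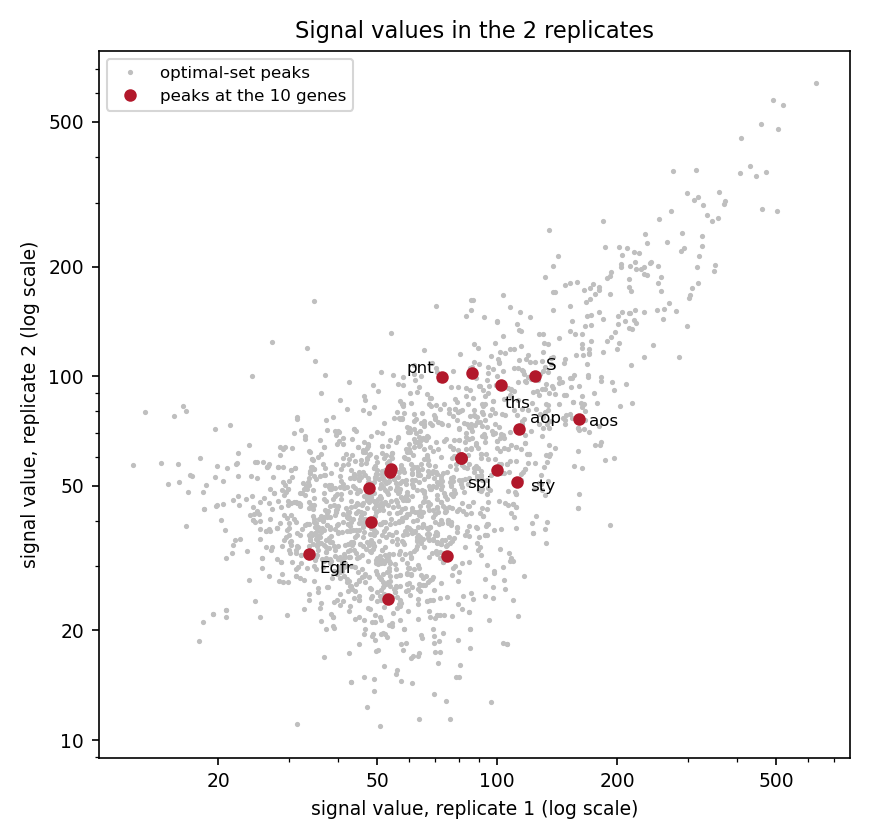
Signal value in replicate 1 (horizontal axis) and replicate 2 (vertical axis), both on log scales, for optimal-set peaks with a candidate in both ranked lists, with the 17 peaks in red and the strongest of each gene named. The red points lie within the cloud of all peaks, with *aos*, *S*, *ths*, *aop* and *pnt* towards its upper part and *Egfr* (33.7 and 32.4) towards its lower part.

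Promoters, taken as 500 bp on either side of a start, held 3 of the 17 peaks (17.6%, against 46.1% of all peaks), and within 1000 bp of a start lay 7 (41.2%, against 56.7%). By the narrower limit only the *spi* peak was at a start of one of the 10 genes, the others being at *Cdc16* and *Tbcd*. Introns held 6 (35.3%, against 34.7%) and intergenic sequence 6 (35.3%, against 14.5%), 5 of the latter being the *sty* cluster. Relative to the gene they were assigned to, 7 summits lay inside, 3 upstream and 7 downstream. Of the 17, 6 were narrower than the 380 bp that was the median width (35.3%, against 17.3%): the *aos*, *ths* and intronic *aop* peaks, the stronger *S* peak, that at *Tbcd* and 1 of *sty*. Promoter position and width were not tested.

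Sequence words were counted within 50 bases of each summit, on both strands, for all 17 windows and for all 1883. TAATTA stood in 3 windows (17.6%, against 10.2% of all windows), 1 of *aop* and 2 of *sty*, none of which was the strongest peak of its gene. TAATGG, a further homeodomain word, stood in the *pnt* window alone (5.88%, against 4.83%). Of the ETS words, AGGAAG stood in the stronger *S* window alone (5.88%, against 3.13%) and CCGGAA in 0 (against 2.18%). GAGAG, the word of the GAGA factor, stood in 1 *sty* window (5.88%, against 9.82%). CAGGTA, the Zelda word, and TATCGATA, the DREF word, stood in 0 (against 1.65% and 0.743%). The windows were AT-rich, with a median of 69.31% A or T against 67.33% for all windows, and ran from 31.68% at the coding *Egfr* window to 82.18%. The windows of the 3 highest peaks, at *aos*, *S* and *ths*, held neither homeodomain word. A match is a description of these letters, and none of the 7 words was tested.

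Of 50 other genes of the receptor tyrosine kinase pathways, 22 had an optimal-set peak by the same rule (44.0%, against 36.0% of all genes), and 16 had one found in both replicates (32.0%, against 19.5%). By nearest start alone 12 did (24.0%, against 10.5%). Among the 2059 long genes the same shares were 46.9% by the rule, 25.3% in both replicates and 25.3% by nearest start, though many of the 50 genes were shorter than these. The counts by role that follow use the same rule, which called 36.0% of all genes, and differences between roles were not tested. Among other EGFR ligand and processing genes 2 of 6 had a peak: *Krn*, which encodes the Spitz-like ligand Keren, with 140.6 and found in both replicates, and *ru*, which encodes a Rhomboid-type protease, with 101.9 (73.2 in replicate 1, 19.7 in replicate 2). Among other FGF genes 1 of 4 did: *stumps*, an adaptor of the FGF receptors, with a promoter peak of 135.5 (89.6 and 33.2).

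Among other receptors and ligands 4 of 12 had a peak, with *Pvr*, the PDGF- and VEGF-type receptor, at 443.9 (at the promoter of *CG8360*), *InR*, the insulin receptor, at 168.3 (106.2 and 48.2), and the *Pvr* ligand genes *Pvf3* at 117.3 and *Pvf1* at 74.98. The Ras and MAP kinase relay had 8 of 12, in order *Shc*, an adaptor, at 489.1 (promoter of *Atat*), *Raf*, the MAP kinase kinase kinase, at 329.5 (152.5 and 180.4), *csw*, a phosphatase, at 243.0 and *cnk*, a scaffold, at 212.5, followed by *rl*, *drk*, *ksr* and *dos*. Of the 12 relay genes 2, *Raf* and *rl*, had the nearest start to a peak, as did 10.5% of all genes.

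Among other inhibitors 4 of 6 had a peak: *Gap1*, annotated as *RasGAP1*, a GTPase-activating protein, at 216.7 (163.5 and 55.9), *Nf1*, also a GTPase-activating protein, at 170.4, *Spred*, a Sprouty relative, at 121.3 and *Mkp3*, a MAP kinase phosphatase, at 84.6 (60.7 and 31.8). Among other nuclear genes 3 of 10 did: *edl*, which encodes a protein that binds Yan and Pointed, at 269.2 (168.3 and 107.9), *cic*, a repressor relieved by MAP kinase, at 124.7 and *phyl*, needed for photoreceptor fate in the eye, at 95.4. The peaks of 10 of the 22 genes, *Krn*, *Pvr*, *drk*, *csw*, *ksr*, *cnk*, *dos*, *Shc*, *Nf1* and *Spred*, all stood nearest to the start of another gene.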

How the data were processed

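ChIP-seq libraries of 1 group with 2 biological replicates were analysed through the 8 deposited bed lists, on the dm6 build per the labels, from chromatin sonicated to 200 to 800 bp per the labels. The software that aligned reads and called peaks is not given in the sources used here, and read depth is unknown. The lists give the authors' signal value per peak, a −log10 q value that the authors deposited on the log10 scale, and, in the ranked lists, the deposited −log10 of the IDR. Every thresholded peak had at least 2 on that scale. The 16 columns of single-replicate values in the ranked lists over both replicates were matched to no sample and not used. Replicates came from separate biological samples per the labels.

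Each peak was placed by its summit on Ensembl release 115 annotation (BDGP6 6.54), and sequence was read from the RefSeq Release 6 assembly, which has the dm6 arms. A summit within 500 bp of any annotated start was a promoter summit. The rest were classed by exon (untranslated ends, CDS or non-coding), then intron, then intergenic. The 86 optimal-set peaks on unplaced sequence were left out, though ranks count all peaks. An optimal-set peak was found in a replicate when it overlapped a thresholded peak of that replicate by 1 bp or more, and its value there was that of the strongest overlapping candidate. All 10 genes and all 50 other pathway genes matched the annotation, 1 of the latter (*Gap1*) through a synonym. The scripts were tested on simulated data.

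The members and lists were chosen with earlier results of these data known, so counts stand beside the same counts over all genes or peaks and no test was made. Named genes were all 10 members, the gene with the nearest start to each of their peaks, and the pathway genes with an optimal-set peak, up to 4 per role with values in order of signal value; genes beside the edge of the window were added after their values were seen. Alternatives were the conservative set, stronger peaks, other windows and assignments, other overlap rules, each replicate's own list, a wider promoter and other sequence windows. Python 3.11.15, numpy 2.4.6 and pandas 2.3.3 were used.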

Additional observations from a re-analysis of the deposited data

How the results depend on the processing

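The number of the 10 genes with an optimal-set peak ran from 6 to 8 over 10 alternatives. The number of peaks at them, 17, fell to 11 with peaks at or above the median signal value, to 10 with a window of 2 kb, to 10 by nearest start alone, to 7 by gene body alone and to 11 at a q value of at most 0.05. It stayed between 13 and 22 under the other 5 alternatives, and was 13 without replicate 1 and 18 without replicate 2. The 12 peaks found in both replicates became 6 with the 2 kb window, by nearest start and by gene body, and 10 to 14 otherwise. The median signal value of 117.5 became 135.2 with the 2 kb window, by nearest start and without peaks that overlap a stronger one, 165.2 for peaks at or above the median and for q at most 0.05, and 189.7 by gene body. The promoter count of 3 became 7 with a promoter of 1000 bp. TAATTA stood in 3 windows under all 3 alternatives. Of the 50 other pathway genes, the 22 with a peak became 12 by nearest start and 11 by gene body, and 16 to 26 otherwise. These alternatives restrict or widen the peaks counted. No paired analysis was possible because there was 1 group and no test.

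With 2 replicates of unknown depth and no control analysed here, a missing peak at *vn* or *pyr* says only that none passed the authors' threshold.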

Other observations

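Some other pathway genes, named here after their values were seen, had more peaks in the list of 1 replicate than in that of the other. Such differences were common: of all 1883 optimal-set peaks, 67.0% stood in the list of replicate 1, 52.0% in that of replicate 2 and 39.6% in both. *Pvf3*, which encodes a ligand of the receptor Pvr, had 4 optimal-set peaks, 4 peaks in the thresholded list of replicate 1 and 0 in the list for replicate 2. The strongest had a signal value of 91.1 in replicate 1 and 32.2 in replicate 2. *rl*, which encodes the MAP kinase itself, showed the opposite order, with an intronic peak of 201.6 in the optimal set, 34.7 in replicate 1 and 160.6 in replicate 2, found in the list of replicate 2 alone. *Raf* had 6 optimal-set peaks, of which 3 were found in both replicates, among them the strongest (152.5 in replicate 1 and 180.4 in replicate 2). The thresholded list of replicate 1 had 6 peaks at *Raf* against 3 for replicate 2.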
